A study of Rattus norvegicus with 16 samples.

Results

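Pcp4, Necab2, Amigo2 and Nnat, a set of 4 genes used as markers of the CA2 and CA3 fields of the hippocampus, were followed across CA1 and CA3 of rat hippocampal slices over a time course. They were chosen by name, with earlier results of these data known, and are 4 of the 10411 genes with a named probe set. A probe set is a group of short array probes read together for 1 transcript, and each of the 4 genes had 1 probe set that named it alone. The slices were organotypic cultures, that is, brain slices kept alive in a dish. Arrays of the CA1 field and of the CA3 field were made at T0, T30m, T3h and T12h (taken as times of 0, 30 min, 3 h and 12 h), 2 for each field and time, which is 8 groups and 16 arrays. The series title names oxidative stress. All groups are slice cultures and the labels name no untreated series at the later times. No source used here gives the agent, its dose, the rat strain and age, or whether T0 was treated. The labels call the replicates biological but do not say that they came from separate animals or cultures, so p-values measure only the spread between these arrays. CA2 has no group of its own and no source used here says on which side of a cut its tissue went.

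The hippocampus passes signals from the dentate gyrus to CA3 and on to CA1, with CA2 as a narrow field between them. CA2 pyramidal neurons are known for little plasticity at the synapses they receive from CA3, for strong handling of calcium, and for resistance to injury, whereas CA1 neurons are known to be lost easily under oxidative stress. In mouse, Pcp4, Necab2 and Amigo2 mark CA2 in tissue sections. Pcp4 is a small peptide that binds calmodulin, the calcium sensor of the cell, and Necab2 is a neuronal calcium-binding protein of the EF-hand type. Amigo2 is a membrane protein with leucine-rich repeats that takes part in adhesion between cells. Nnat (neuronatin) is a small membrane protein of the endoplasmic reticulum, made in developing and mature neurons from the paternal copy of an imprinted gene, and is taken here as a CA3 marker.

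The stretches just upstream of Pcp4 and Amigo2 are shown because the sign of the field difference was the same in all 8 pairs for Pcp4 and the most divided, 3 lower and 5 higher in CA1, for Amigo2. Both are the 250 bases before the transcript start in RefSeq, assembly GRCr8, read 5′ to 3′ along the gene. The Pcp4 window is chr11:49269936-49270185 on the plus strand, and it lies inside the gene's record because longer transcripts start further upstream. The Amigo2 window is chr7:130273736-130273985 on the minus strand. Capitals mark matches, on either strand, to the motif CCAAT. They also mark matches to GGGCGG. The third motif marked is the E-box CANNTG, and no marked matches overlap.
Pcp4: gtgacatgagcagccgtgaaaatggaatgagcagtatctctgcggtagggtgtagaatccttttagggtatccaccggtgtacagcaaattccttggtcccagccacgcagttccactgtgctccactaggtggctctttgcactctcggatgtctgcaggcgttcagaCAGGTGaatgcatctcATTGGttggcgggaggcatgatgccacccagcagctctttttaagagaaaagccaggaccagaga
Amigo2: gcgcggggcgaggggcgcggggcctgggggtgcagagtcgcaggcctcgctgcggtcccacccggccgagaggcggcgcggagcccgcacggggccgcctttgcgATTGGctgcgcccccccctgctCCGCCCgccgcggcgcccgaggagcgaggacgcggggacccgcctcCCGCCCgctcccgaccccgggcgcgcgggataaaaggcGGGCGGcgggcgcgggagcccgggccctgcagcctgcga
The Pcp4 window has a GC content of 52.4% and 7 CpG dinucleotides, near the medians of 51.2% and 5 over all 33469 rat windows of this length. The Amigo2 window has 82.8% and 42, and the window of Necab2, not printed because it overlaps transcribed bases, has 85.6% and 42. Pcp4 has 1 CCAAT match and 1 CANNTG match, Amigo2 has 1 CCAAT and 3 GGGCGG matches, and Necab2 has 3 GGGCGG matches and 1 CANNTG match. Of all windows, 34% hold CCAAT, 30.5% hold GGGCGG and 65.5% hold CANNTG. None of the 3 windows holds TGACGTCA, TGANTCA or TATAAA, which 1.59%, 6.34% and 12.9% of all windows hold. These matches describe letters only. Nnat has no entry in the table of windows.

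All values below are log2 expression values, and a difference of 1 is a 2-fold change. Where the 2 arrays of a group do not overlap the 2 of another, the share of all probe sets with such a gap was not counted. Those statements are descriptions only. Array medians lay between 5.814 and 5.941, and the 2 arrays of a group correlated at r = 0.911 to 0.969. The largest r over all pairs of arrays, 0.988, was between arrays of different groups. Arrays of CA1 and CA3 that carry the same time and replicate number deviated together from their group means, so they are treated as 8 pairs. The spiked Bacillus controls were lowest in both arrays of number 2 at 30 min (4.37 in CA1 and 4.15 in CA3) and at 12 h (4.36 and 4.32), against 4.15 to 6.46 over all arrays. The spiked bioB controls ranged from 5.76 to 10.59. The gap between the 3′ and 5′ probes of Gapdh, a sign of RNA length, ranged from 1.29 to 3.93 and was highest in both arrays of number 2 at 3 h. In every group it was larger in the array of number 2, as in CA1 at 12 h (3.02 against 1.36), so replicate number and this gap go together over the whole series. The field labels were checked against 8 measured CA1 markers. Their mean was 6.96 to 7.21 in CA1 and 5.4 to 5.72 in CA3 at 12 h, and 5.67 to 6.47 in CA1 and 5 to 5.5 in CA3 at 30 min. At 3 h the fields overlapped, with 4.97 to 5.99 in CA1 and 5.33 to 5.46 in CA3. At T0 the order was the other way, with 4.93 to 5.02 in CA1 and 5.23 to 5.35 in CA3, so these markers do not separate the T0 arrays in the direction of their labels. The 12 measured CA3 markers did at T0, with a mean of 5.48 to 5.49 in CA1 and 5.59 to 5.76 in CA3. They were also lower in CA1 without overlap at 3 h (5.46 to 5.77 in CA1 and 5.78 to 5.89 in CA3) and at 12 h (5.83 to 6 in CA1 and 6.13 to 6.18 in CA3), and overlapped at 30 min. Of these 12 markers 7 lay below the lowest array median, as did 4 of the 8 CA1 markers. At T0 9 of the 12 were lower in CA1 and 3 higher, with a median difference of -0.17. All 8 measured excitatory neuron markers were also lower in CA1 at T0, with a median of -0.7. Their part in this check was not tested.

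**Figure D1:**
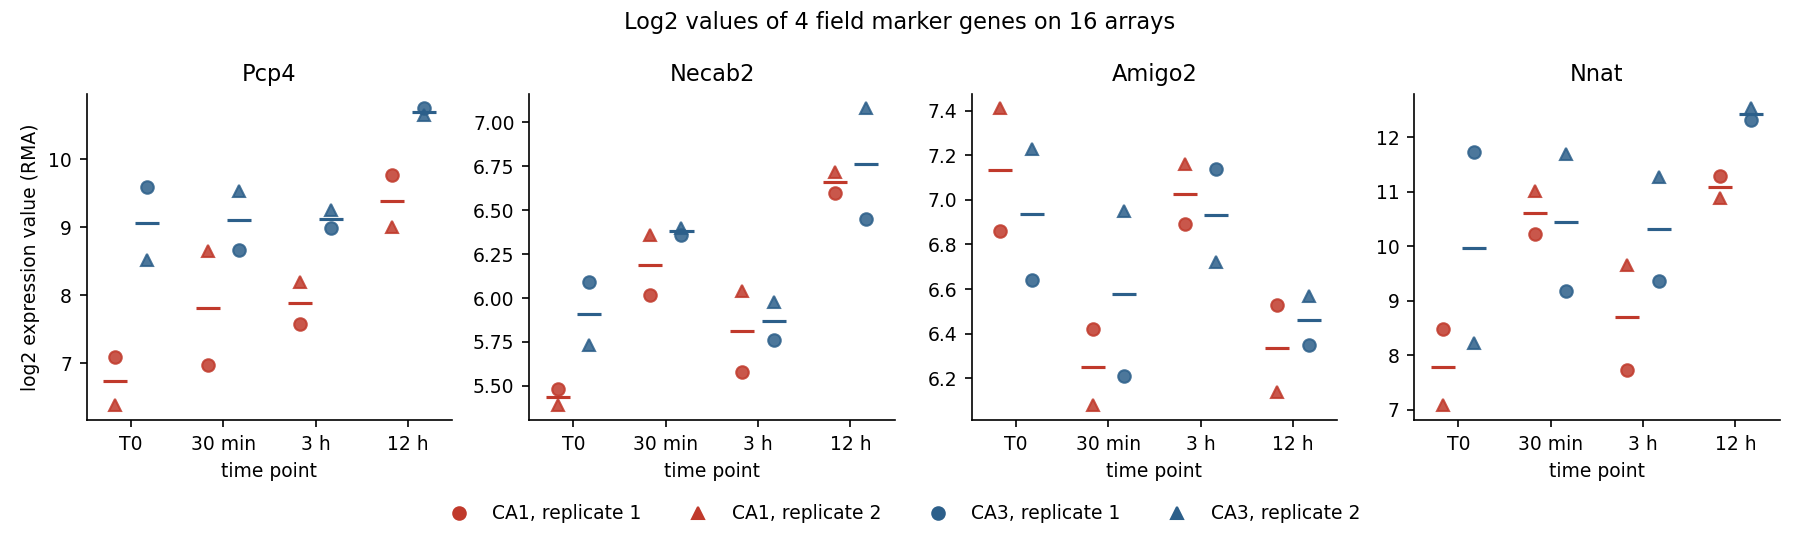
Log2 expression of Pcp4, Necab2, Amigo2 and Nnat on the vertical axes in each of the 16 arrays, by time on the horizontal axes. Each symbol is 1 array, a circle for replicate 1 and a triangle for replicate 2, and each short line is the mean of a group's 2 arrays, with CA1 in red and CA3 in blue. Pcp4 in CA1 lies below Pcp4 in CA3 at all 4 times, whereas the fields overlap for Amigo2 at every time.

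Pcp4 was lower in CA1 than in CA3 in every pair of arrays and at every time, and it was higher at 12 h than at T0 in both fields. At T0 it read 7.09 and 6.38 in CA1, against 9.59 and 8.52 in CA3. At 30 min it read 6.97 and 8.65 in CA1, against 8.67 and 9.53 in CA3. The fields did not overlap at either time, although at 30 min the higher CA1 array, 8.65, came close to the lower CA3 array, 8.67. At 3 h Pcp4 read 7.57 and 8.19 in CA1, against 8.99 and 9.26 in CA3. At 12 h it read 9.77 and 9 in CA1, against 10.75 and 10.65 in CA3. Again the fields did not overlap. Both CA1 arrays at 12 h lay above the lower CA3 array at T0, 8.52. Against the higher CA3 array at T0, 9.59, the CA1 array at 9.77 lay above and that at 9 lay below.

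The CA1 minus CA3 difference of Pcp4 was -2.5 and -2.14 in the T0 pairs, -1.7 and -0.88 at 30 min, -1.42 and -1.07 at 3 h, and -0.98 and -1.65 at 12 h. Its median over the 8 pairs was -1.53 with an SD of 0.57. Pcp4 was thus lower in CA1 in 8 of 8 pairs, as were 162 of the 15866 probe sets tested, or 1.02%. Averaged over the 4 times the difference was -1.54, a level 2.91-fold lower in CA1. In the fit of single arrays without the pairing its standard error was 0.28 and the adjusted p from limma was 0.529. No probe set of 15866, 0%, passed in that fit, and 510 had an unadjusted p under 0.05. With the pairing, the standard error was 0.13 and the adjusted p from limma was 0.0104, in a fit that found 26 probe sets lower in CA1, or 0.164%. That call was kept in 6 of the 8 fits that left out 1 pair, with adjusted p from 0.0169 to 0.0832. Excitatory neuron markers were also lower in CA1 in 7 of 8 pairs, with a median pair difference of -0.41, and oligodendrocyte markers in 8 of 8, with -0.64. Their part in the Pcp4 difference was not tested, and in whole-field RNA fewer cells of a type and less RNA per cell cannot be told apart.

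Among single times, the T0 difference of Pcp4 was -2.32, and the later ones were -1.29 at 30 min, -1.24 at 3 h and -1.32 at 12 h, each ± 0.56 (SE). None of these passed alone, with adjusted p from limma of 1 at each time and of 0.119 to 0.84 with the pairing. Against T0, Pcp4 stood 1.07 higher in CA1 and 0.05 higher in CA3 at 30 min, and 1.14 and 0.07 higher at 3 h. The difference at 12 h was 2.65 ± 0.56 in CA1 and 1.65 ± 0.56 in CA3, and neither passed within its field alone (adjusted p 0.117 and 0.564). These steps differed by 1 ± 0.79, which did not pass (adjusted p 1). With limma 0 probe sets, 0%, passed for this difference of changes with or without the pairing, and 71 and 371 had an unadjusted p under 0.05 without and with it.

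**Figure D2:**
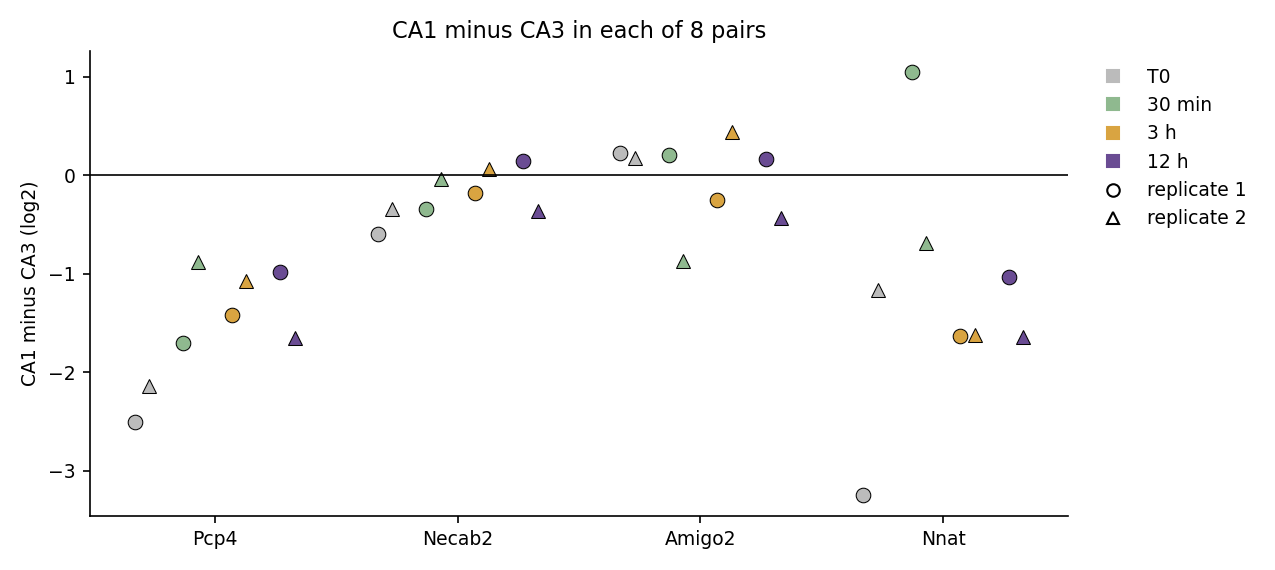
CA1 minus CA3 differences of log2 expression on the vertical axis for the 8 pairs of arrays that share a time and a replicate number, for each gene. Each point is 1 pair, and the line at 0 marks equal values in both fields. All 8 Pcp4 pairs lie below 0, from -2.5 to -0.88, and the Amigo2 pairs lie on both sides.

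Over both fields, Pcp4 stood 0.56 above T0 at 30 min and 0.61 above it at 3 h, and 2.15 above it at 12 h, each ± 0.4 (SE). None of the 4 genes passed at 30 min, where 0.107% of probe sets did, or at 3 h, where 0.183% did. In the fit of all arrays, which counts the 2 arrays of a pair as independent, 133 probe sets, or 0.838%, rose at 12 h. The 12 h rise of Pcp4, a factor of 4.43, passed there with an adjusted p from limma of 0.0287. It did not pass when each pair was averaged first (adjusted p 0.296 with SE 0.5), a fit in which no probe set, 0%, passed at 12 h and 1664 had an unadjusted p under 0.05. The 3 times are set against the same 4 arrays at T0. The lowest 12 h array, CA1 number 2 at 9, lay below the highest T0 array, CA3 number 1 at 9.59, so the times overlap over both fields but within neither field. Leaving out any of 7 arrays (both CA1 arrays at T0, number 2 of CA3 at T0, and all 4 at 12 h) ended the call, with adjusted p up to 0.123. In order of mean the 8 groups ran from CA1 at T0, 6.74, to CA3 at 12 h, 10.7. Only the steps from CA1 at 3 h, 7.88, to CA3 at T0, 9.05, and from CA1 at 12 h, 9.38, to CA3 at 12 h were free of overlap between neighbours.

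Necab2 had a small spread, showed no difference between the fields that passed, and was higher at 12 h than at T0. In CA1 it read 5.48 and 5.39 at T0, 6.02 and 6.36 at 30 min, 5.58 and 6.04 at 3 h, and 6.6 and 6.72 at 12 h. In CA3 it read 6.09 and 5.73 at T0, 6.36 and 6.4 at 30 min, 5.76 and 5.98 at 3 h, and 6.45 and 7.08 at 12 h. The fields were apart at T0, met at 6.36 at 30 min, and overlapped at 3 h and 12 h. The CA1 minus CA3 difference was below 0 in 6 of 8 pairs, from -0.6 to 0.15 with a median of -0.26, and 18% of probe sets were below 0 in at least 6. Averaged over time it was -0.21 ± 0.12 (SE; adjusted p 1 from limma, 0.545 with the pairing).

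At 12 h all 4 Necab2 arrays, from 6.45 to 7.08, lay above all 4 at T0, from 5.39 to 6.09, as did 7.55% of probe sets. The change was 1.04 ± 0.17 (SE), a factor of 2.06, with an adjusted p from limma of 0.0191. With pairs averaged first it was 1.04 ± 0.21 with an adjusted p of 0.249. Leaving out any of 5 arrays (both CA1 arrays at T0 and number 2 of CA3 at T0, of CA1 at 12 h and of CA3 at 12 h) ended the call, with adjusted p up to 0.088. The step was 1.22 ± 0.24 in CA1 and 0.86 ± 0.24 in CA3, and these differed by 0.36 ± 0.35 (adjusted p 1). At 30 min and 3 h Necab2 stood 0.61 and 0.17 above T0. In order of mean the groups ran from CA1 at T0, 5.44, to CA3 at 12 h, 6.77, with 5 of 7 neighbours overlapping. Both CA1 arrays at T0 lay below those of every other group.

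Across the 8 pairs, Pcp4 and Necab2 differed between the fields in step. The pair differences correlated at r = 0.93 (Spearman's rho 0.86, and r = 0.91 over the 6 pairs left without the 2 farthest from the Pcp4 median). Among 10410 other genes, Necab2 had the highest such correlation with Pcp4 and Pcp4 the highest with Necab2. Over the 16 arrays their levels correlated at r = 0.77. These values are descriptions, since pairs at 1 time share their treatment time and each array carries both genes.

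**Figure D3:**
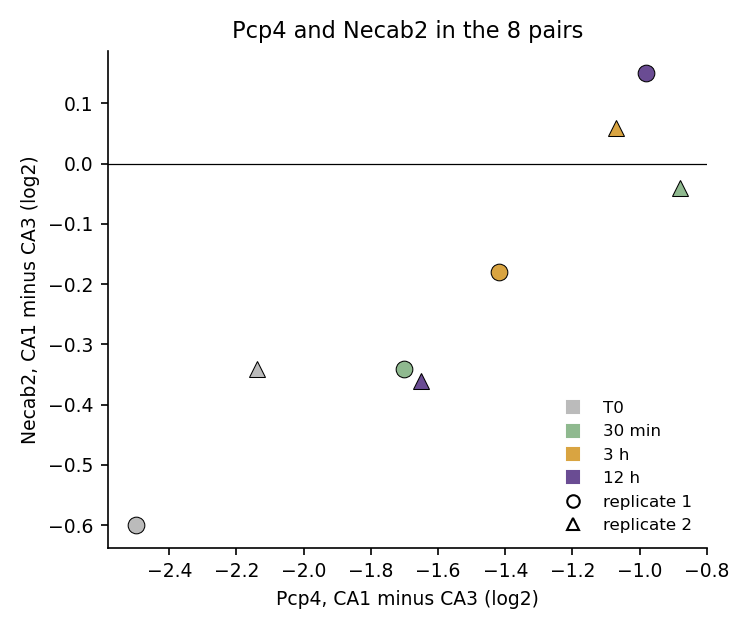
CA1 minus CA3 difference of Necab2 on the vertical axis against that of Pcp4 on the horizontal axis, both in log2 units, 1 point for each of the 8 pairs of arrays. The T0 pairs lie lowest on the Pcp4 axis, at -2.5 and -2.14, and the points run from lower left to upper right (r = 0.93).

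Amigo2 did not separate the fields at any time and was lower at 12 h than at T0 in every array, by an amount that did not pass. In CA1 it read 6.86 and 7.41 at T0, 6.42 and 6.08 at 30 min, 6.89 and 7.16 at 3 h, and 6.53 and 6.14 at 12 h. In CA3 it read 6.64 and 7.23 at T0, 6.21 and 6.95 at 30 min, 7.14 and 6.72 at 3 h, and 6.35 and 6.57 at 12 h. The fields overlapped at all 4 times, and so did all 7 neighbours in the order of the 8 groups, from CA1 at 30 min, 6.25, to CA1 at T0, 7.14. CA1 was lower in 3 pairs and higher in 5, from -0.87 to 0.44 with a median of 0.17. The average difference was -0.04 ± 0.16 (SE; adjusted p 1 from limma, 0.994 with the pairing), and its sign turned under several of the settings that left out arrays. All 4 arrays at 12 h, from 6.14 to 6.57, lay below all 4 at T0, from 6.64 to 7.41, as did 8% of probe sets. The change at 12 h was -0.64 ± 0.22 (SE), with an adjusted p from limma of 0.163 (0.407 with pairs averaged first). It was -0.62 at 30 min and -0.06 at 3 h, where the Amigo2 arrays, from 6.72 to 7.16, lay within the T0 range.

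Nnat was the brightest of the 4 probe sets and the most variable between arrays of 1 group. In CA1 it read 8.48 and 7.08 at T0, 10.22 and 11.01 at 30 min, 7.73 and 9.65 at 3 h, and 11.29 and 10.89 at 12 h. In CA3 it read 11.72 and 8.23 at T0, 9.17 and 11.7 at 30 min, 9.36 and 11.27 at 3 h, and 12.32 and 12.53 at 12 h. Its replicates differed by up to 3.49, in CA3 at T0, and the fields were apart only at 12 h. In the CA3 array of number 1 at T0 the excitatory neuron markers averaged 6.59, against 5.58 in number 2, and the part of this in the Nnat value was not tested. CA1 was lower in 7 of 8 pairs and higher in pair 1 at 30 min by 1.05, and 5.95% of probe sets were lower in at least 7. The average difference of -1.24 ± 0.59 (SE) did not pass (adjusted p 1 from limma, 0.0942 with the pairing and SE 0.24). Leaving out 1 pair let it pass in 1 of 8 fits, without pair 2 at T0, at -1.5 with an adjusted p of 0.0311.

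Against T0, Nnat stood 1.65 higher at 30 min, 0.62 higher at 3 h and 2.88 higher at 12 h, each ± 0.83 (SE). That at 12 h, a factor of 7.36, had an adjusted p from limma of 0.102 (0.423 with pairs averaged first), and within each field the 12 h arrays lay above those at T0. Without CA3 number 1 at T0 it was 3.75 with an adjusted p of 0.04. The step was 3.31 ± 1.17 in CA1 and 2.45 ± 1.17 in CA3, and these differed by 0.86 ± 1.66 (adjusted p 1). In RefSeq the Nnat record lies whole within that of Blcap. The Blcap probe set, for an apoptosis-related gene, differed by 1.81 ± 0.42 at 12 h (adjusted p 0.0575) and by -0.39 ± 0.3 between the fields.

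**Figure D4:**
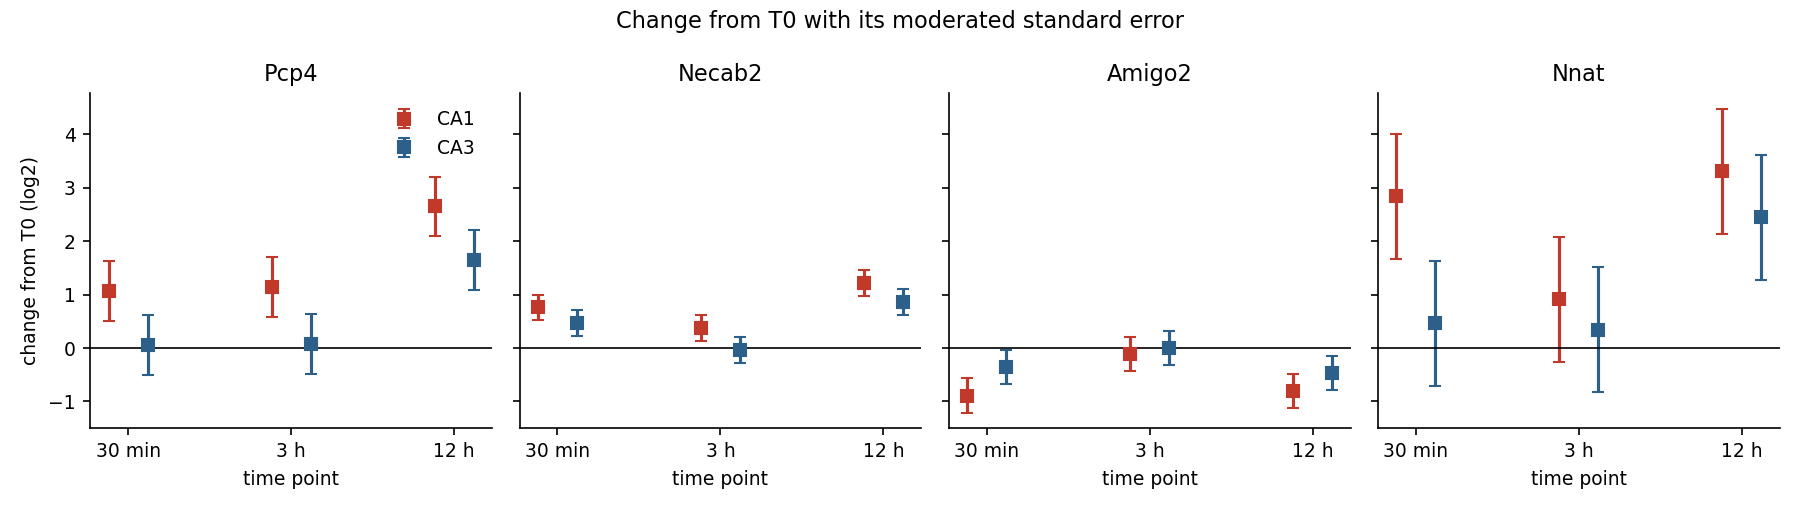
Log2 difference of each gene from T0 on the vertical axis at 30 min, 3 h and 12 h, in CA1 (red) and CA3 (blue), with moderated standard errors from the fit of all 16 arrays as bars. At 12 h Pcp4 stands at 2.65 in CA1 and 1.65 in CA3, Nnat at 3.31 and 2.45, and Amigo2 below 0 in both fields.

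Other CA2 markers did not share the field difference of Pcp4. Of 18 listed, 15 were measured and 11 of these lay below the lowest array median. Their median CA1 minus CA3 difference was 0.01, against -0.01 over all probe sets, with 8 above and 7 below 0, and 0 of 15 passed in either fit. Rgs14, a G-protein regulator that limits CA2 plasticity in mouse, differed by -0.14 ± 0.2 (SE) between the fields and by 0.77 ± 0.29 at 12 h (adjusted p 0.191). The largest differences between the fields in this list were 0.32 for Fgf2, a growth factor, and -0.31 for Acan, the core protein of aggrecan in perineuronal nets (adjusted p 0.444 and 0.24 with the pairing). At 12 h the list median was 0.08, against -0.02 over all probe sets, and the largest difference was 0.86 ± 0.49 for Ptpn5, a neuronal tyrosine phosphatase (adjusted p 0.404). Of 20 further CA3 marker symbols, which hold Nectin3 also under its older name Pvrl3, 12 were measured. Of these, 11 had a difference below 0, and the median was -0.1. Grik4, a kainate receptor subunit, had the lowest at -0.83 ± 0.15 with the pairing (adjusted p 0.0818). At 12 h that median was 0.17, and 1 of the 12 rose in the fit of all arrays, as did 0.838% of probe sets. This was Crtac1, a secreted cartilage protein also made in brain, by 2.28 ± 0.46 (adjusted p 0.0381 from limma). It did not pass with pairs averaged first.

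The other fields' markers were read for comparison. Of 12 CA1 marker symbols, some of them alternative names of the same gene, 8 were measured. Averaged over the 4 times, their median CA1 minus CA3 difference was 0.57, with all 8 above 0, and 0 passed in the fit of all arrays. By time, 5 of the 8 were below 0 at T0 and 4 at 3 h, against 1 at 30 min and 1 at 12 h. Their median change at 12 h was 1.21 over both fields, 2.12 in CA1 and 0.32 in CA3. Over both fields 1 of the 8 rose in the fit of all arrays, as did 0.838% of probe sets. This was Pou3f1, a transcription factor of the POU family, by 1.21 ± 0.26 (adjusted p 0.0462 from limma). Of 14 dentate gyrus markers, 8 were measured, with medians of 0 between the fields and -0.21 at 12 h. Single genes were spread widely, from -1.29 to 1.02 between the fields, with 4 above and 4 below 0. At 12 h they ran from -2 to 0.07, and 0 passed in either contrast.

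**Figure D5:**
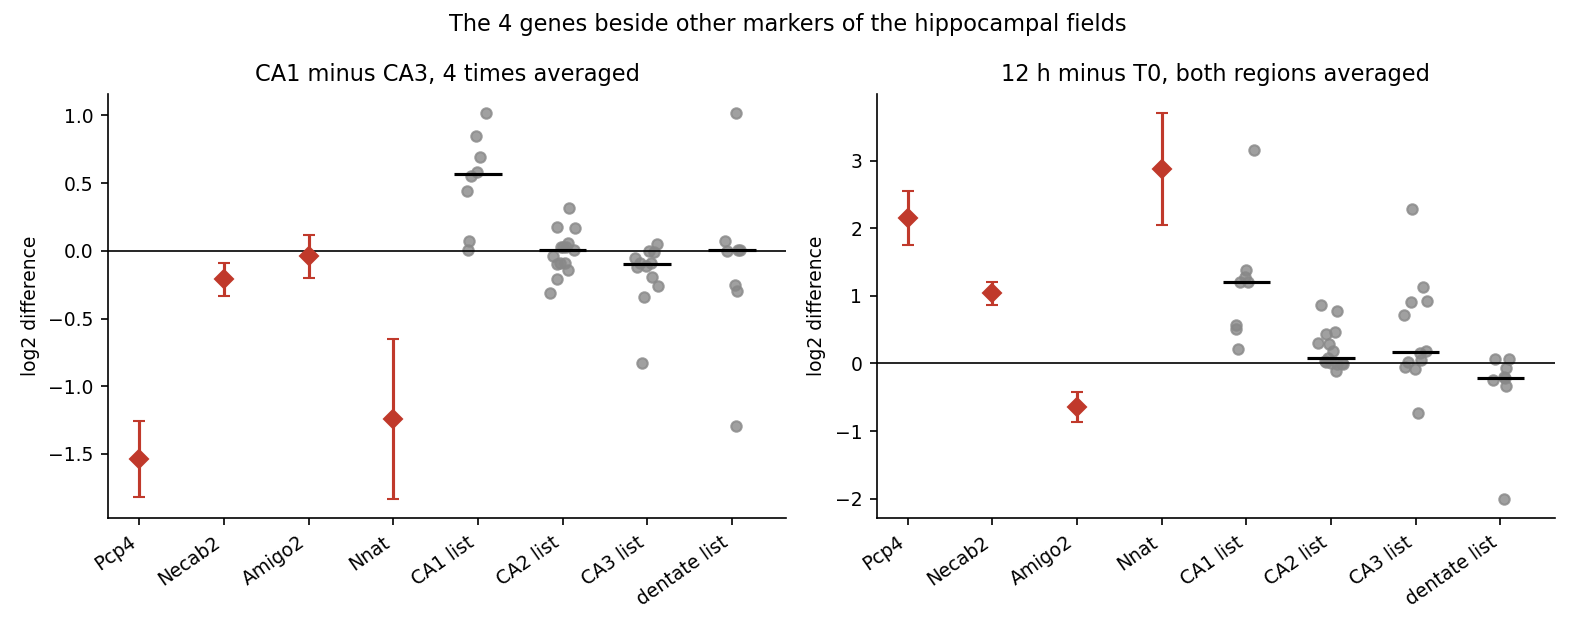
Log2 differences on the vertical axes of the 4 genes (red, with moderated standard errors as bars) and of other field markers (grey, 1 point a gene, with a line at each list's median), for CA1 minus CA3 averaged over the 4 times at left and 12 h minus T0 averaged over both fields at right. Pcp4 at -1.54 lies below every other CA2 and CA3 marker at left, and the CA1 list has medians of 0.57 at left and 1.21 at right.

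Relatives of the 4 genes by protein type were counted in the same way. Of 20 other calmodulin and calcium-binding protein genes, 17 were measured, with a median of -0.23 between the fields and 0.72 at 12 h. With the pairing 1 of the 17 was lower in CA1, as were 0.164% of probe sets. This was Vsnl1, a neuronal calcium sensor, at -1.44 ± 0.2 (adjusted p 0.0433 from limma). Pcp4l1, the closest relative of Pcp4 among these genes, differed by 0.06 between the fields and by 0.13 at 12 h. Of 14 other AMIGO and leucine-rich repeat adhesion genes, 5 were measured, and their median was 0.74 at 12 h. There Amigo1 differed by 0.83 ± 0.4 and Amigo3 by -0.18 ± 0.24, neither past the threshold. Of 18 imprinted genes other than Nnat, 15 were measured, with medians of -0.05 between the fields and 0.31 at 12 h.

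Cell type markers moved over the same 12 h. The fit of all arrays called 328 of 15866 probe sets, 2.07%, in either direction at 12 h, with 133, or 0.838%, higher. Of 8 excitatory neuron markers 7 had a positive difference and Tbr1 stood at -0.04, with a median of 1.71, and 1 rose, Slc17a6, a vesicular glutamate transporter, by 2.14 ± 0.41 (adjusted p 0.0317). Their mean level was 7.01 to 7.46 at 12 h, against 5.2 to 6.59 at T0, with no overlap. Of 11 dividing cell markers 10 fell, namely Cdkn3, Mki67, Kif15, Racgap1, Top2a, Rrm1, Ccnb2, Cdk1, Melk and Mcm3, with differences of -3.11 (Cdkn3) to -1.15 (Mcm3), and their mean level was 5.36 to 5.97 at 12 h, against 7.52 to 8.19 at T0. Of 15 microglia markers 5 fell, namely C1qc, Ptprc, C1qa, Lyz2 and Ctss, with differences of -2.48 (C1qc) to -1.73 (Ctss), and their mean was 6.35 to 7.66 at 12 h, against 8.26 to 8.69 at T0. Of 9 interneuron markers 1 rose, Cck, a neuropeptide, by 2.52 ± 0.48 (adjusted p 0.0315), with a list median of 0.48. Of 12 fibroblast, meningeal and choroid plexus markers 1 fell, Fn1 (fibronectin), at -2.54 ± 0.43 (adjusted p 0.0209), with a list median of -0.38. None of 11 astrocyte, 10 endothelial and mural cell, 9 oligodendrocyte and 4 ependymal markers passed at 12 h, with medians of -0.28, -0.09, 0.19 and -0.15. All 12 h calls given for list genes come from the fit of all arrays, and none held with pairs averaged first. The spiked Bacillus controls also read lower, with 4.32 to 5.16 at 12 h, against 5.96 to 6.46 at T0. With them as a covariate neither Pcp4 (1.69, adjusted p 0.366) nor Necab2 (0.92, adjusted p 0.267) passed at 12 h. The array method makes each value relative to the other genes of its array, and the part of these shifts in the 12 h values of Pcp4, Necab2 and Nnat was not tested. Between the fields, 3 of 9 oligodendrocyte markers were lower in CA1 with the pairing, as were 0.164% of probe sets. They were Mbp at -1.12, Mag at -1.14 and Cldn11 at -0.95, all proteins of myelin.

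Genes whose levels over the 16 arrays were most like those of Pcp4 were Rfng (r = 0.909), Gabra5 (0.878), Ttc9b (0.864), Slc22a17 (0.863) and L1cam (0.86). For Necab2 they were Ube2d1 (0.927), Plpp4 (0.919), and Serp2, Nrn1 and Nrsn1 (0.909 each). For Nnat they were Nell2 (0.972), Rab6b (0.972), Snap25 (0.97), Gabra5 (0.965) and Vsnl1 (0.962). Gabra5, a subunit of the GABA-A receptor, stood in the lists of both Pcp4 and Nnat. For Amigo2 they were Adpgk (0.852), Nfatc3 (0.844), Adgre5 (0.833), Fkbp15 (0.804) and Ptgr1 (0.772). Over the 16 arrays Pcp4 and Nnat correlated at 0.84 and Necab2 and Nnat at 0.82, while Amigo2 was inverse to Pcp4 (-0.38), Necab2 (-0.67) and Nnat (-0.58). Over the 8 pair differences the likeness of Pcp4 to Nnat was 0.37 and of Necab2 to Nnat 0.28.

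By pair differences, the genes next after Necab2 in likeness to Pcp4 were Gria2 (0.883), Irgm2 (0.88), Nufip1 (0.88) and Nr2f2 (0.872). Those next after Pcp4 in likeness to Necab2 were Nr2f2 (0.919), Dtnbp1 (0.911), Pepd (0.896) and Bst2 (0.886). Nr2f2, a nuclear receptor, was in both lists. For Amigo2 they were Sema4d (0.941), Ddx25 (0.938), Parva (0.935), Sgca (0.904) and Agtr1a (0.886), and for Nnat Spetex2l2 (0.993), Rpusd4 (0.988), Rab6b (0.982), Rit2 (0.979) and Uchl1 (0.978). With 10410 genes ranked over 8 or 16 points that share time and array, high values arise among many genes, and these are descriptions only.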

How the data were processed

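The authors deposited log2 values from RMA, as the submitters' processing notes name it, with 1 value for each probe set on each array. RMA corrects background, gives all arrays 1 distribution and summarises probes. No source used here gives its settings. RNA was labelled over an amplification in 2 cycles, per the labels' protocols. Of 15923 probe sets, 57 controls were set aside and 15866 tested, without a filter on low values. The platform annotation gave 12783 of them 1 gene, 312 several and 2771 none, and 12748 matched a RefSeq gene, which changed 0 symbols.

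A linear model was fitted with limma 3.58.1 in R 4.3.3 as 8 group means without a covariate (8 residual degrees of freedom, prior 2.55), and p-values were Benjamini-Hochberg adjusted over all probe sets within a contrast, with a threshold of 0.05. Errors after ± are moderated standard errors unless called SD. Within a time, deviations of same-numbered CA1 and CA3 arrays from their group means correlated at 0.57 (T0), 0.67 (30 min), 0.58 (3 h) and 0.57 (12 h). On these values the numbers were taken to pair the fields. The labels do not say that same-numbered arrays share an animal, a culture or a processing batch. The part of the Gapdh gap, larger in number 2 in every group, in these correlations was not tested. The paired fit used the 8 pair differences for field contrasts and the 8 pair means for time contrasts (4 residual degrees of freedom, prior 5.17 and 2.06). Both fits were also run on simulated data with changes put in, and those runs are not used as support for any result here.

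The 4 genes, the marker lists and the comparisons were chosen with earlier results of these data known. Besides the 4 genes, the text names the 5 genes most like each by Pearson r, and of each list those past the threshold and at most 3 of the largest in a contrast. Pcp4l1, Amigo3 and Tbr1 were named outside this rule, after their values were seen. Other scalings, a filter, covariates, left-out arrays and the pairing were tried as alternatives. The number of arrays limits the precision.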

Additional observations from a re-analysis of the deposited data

How the results depend on the processing

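The lower Pcp4 level in CA1 kept its sign under every setting run, and its call depends on the pairing. With the replicate block of the paired fit it was -1.54 (adjusted p 0.0104 from limma), whereas the 12 h differences of Pcp4 (2.15, 0.296) and Necab2 (1.04, 0.249) no longer passed, and 33 probe sets passed for the field and 0 at 12 h. That fit changed no other call of the 4 genes. The replicate number as a term gave 1302 probe sets at 12 h, with Necab2 in CA1 past the threshold at 1.22. With the Bacillus control level as a covariate the 12 h values were 1.69 for Pcp4 (0.366) and 0.92 for Necab2 (0.267), Pcp4 in CA3 was -0.26 at 30 min and -0.05 at 3 h, and 4 probe sets passed at 12 h. With the Gapdh 3′ to 5′ gap as a covariate, 2014 did, Nnat at 12 h was 2.98 (0.0392) and its field difference at 30 min was -0.08. Within CA1 at 12 h, Pcp4 (2.66, 0.0402) and Necab2 (1.28, 0.022) then passed.

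Without the number 2 arrays of 30 min and 12 h, which have low controls, Pcp4 at 12 h was 2.36 (0.167), Necab2 0.85 (0.295), and 1 probe set passed. The field difference of Amigo2 was then 0.17 on average, 0.21 at 30 min and 0.17 at 12 h, that of Necab2 at 12 h 0.15, and the 30 min differences were -0.07 for Pcp4 over both fields, -0.38 for Pcp4 in CA3 and -0.80 for Nnat in CA3, with 0.01 for the difference of the Amigo2 changes. Without the number 2 arrays of 3 h, Pcp4 at 12 h was 2.15 (0.0507). At 3 h the Amigo2 field difference was then -0.25, Nnat was -0.34 over both fields, -0.05 in CA1 and -0.62 in CA3, and Pcp4 was -0.06 in CA3.

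Leaving out 1 array, or 1 pair in the paired fit (chosen after seeing the data), gave these ranges. The average field difference was -1.75 to -1.33 for Pcp4, -0.17 to 0.10 for Amigo2 and -1.68 to -0.81 for Nnat, with 0 to 81 probe sets passing. At single times it was -0.09 to 0.50 (T0), -0.87 to 0.21 (30 min), -0.25 to 0.44 (3 h) and -0.43 to 0.17 (12 h) for Amigo2, -0.29 to 0.17 (3 h) and -0.42 to 0.21 (12 h) for Necab2, and -1.09 to 1.44 (30 min) for Nnat. The 12 h change was 1.70 to 2.59 for Pcp4, 0.85 to 1.23 for Necab2 and 1.66 to 4.10 for Nnat, with 0 to 474 probe sets. Over both fields, Pcp4 was -0.07 to 1.20 at 30 min, and at 3 h Amigo2 was -0.35 to 0.23 and Nnat -0.60 to 1.84. In CA1 at 3 h, Amigo2 was -0.39 to 0.16 and Nnat -0.05 to 1.87. In CA3 at 30 min, Pcp4 was -0.49 to 0.59, Amigo2 -0.72 to 0.01 and Nnat -1.28 to 2.20, and at 3 h Pcp4 was -0.47 to 0.61, Necab2 -0.22 to 0.14 and Nnat -1.40 to 2.08. The changes differed between the fields by -1.08 to 0.01 (30 min) and -0.46 to 0.24 (3 h) for Amigo2, and -1.17 to 2.31 (3 h) and -0.88 to 2.60 (12 h) for Nnat. The causes were not tested. Another probe set for a gene could not be tried, since each has 1.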
